A study of Arabidopsis thaliana with 6 samples.

Results

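The peptide transport genes of Arabidopsis thaliana were followed through anther development in flower buds of atcep1 plants and of wild-type (WT) plants. CEP1 is a papain-like cysteine protease, and atcep1 plants carry a mutation in its gene; the labels name no allele. The annotation term for this set was chosen with earlier results of these data known. Its members are every locus given the gene ontology process peptide transport in any of the 6 deposited tables. That gave 57 of 25964 loci. Each genotype, both in the Columbia background and grown on soil in long days, was sequenced once at stage A (anther stages 5 to 6), once at stage B (7 to 9) and once at stage C (10 to 11). The groups are therefore atcep1 stages A, B and C and WT stages A, B and C, with 1 library of whole buds in each.

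Plants move small peptides with members of a pair of large transporter families. The NPF family (NITRATE TRANSPORTER 1/PEPTIDE TRANSPORTER) uses the proton gradient, and although some members carry dipeptides and tripeptides, its best known plant members carry nitrate, glucosinolates or hormones. The OPT family carries oligopeptides, glutathione or metal chelates. In the anther, the tapetum (the innermost wall layer) breaks down as it feeds the developing pollen, and both draw nitrogen and sugars from the rest of the plant.

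The annotation term is broader than its name. Of the 57 members, 47 carry the orthology label of solute carrier family 15, the peptide and histidine transporters of animals. The 45 members classed here as NPF-type transporters are all the protein-coding ones outside the OPT family except AT3G01360, whether or not they have an NPF name. Among these, 9 are named for nitrate, 2 for glucosinolates and 1, PTR4, for peptides, while 33 have only a family number or no name. A further 8 are oligopeptide transporters (OPT1, OPT2 and OPT4 to OPT9), 3 are non-coding transcripts or pseudogenes, and 1, AT3G01360, is another protein-coding gene. Of the members, 26 lie within 10 kb of another member, in 9 clusters; the longest runs over chr3:16759253-16786945 (TAIR10) and holds 6 genes, NAXT1 and AT3G45680 among them.

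The DNA upstream of the 4 members with the largest genotype difference is shown so that it can be read beside their values. Each window is the 250 bases before the outermost start that the files or RefSeq give the gene, read 5′ to 3′ on the gene's strand from the RefSeq assembly TAIR10.1; no window overlaps its own gene in either, or another locus of the files. The windows end 85, 1068, 137 and 33 bases before the starts in the files, in the order printed. Capitals mark TATAAA, the core of the TATA box, which here occurred only as its reverse complement TTTATA. The matches began 198 bases before the outermost start for NPF4.3, and 238 and 151 bases before it for AT5G14940. Whether any acts as a TATA box was not tested.
NPF4.3 (AT1G59740), chr1:21967736-21967985, plus strand: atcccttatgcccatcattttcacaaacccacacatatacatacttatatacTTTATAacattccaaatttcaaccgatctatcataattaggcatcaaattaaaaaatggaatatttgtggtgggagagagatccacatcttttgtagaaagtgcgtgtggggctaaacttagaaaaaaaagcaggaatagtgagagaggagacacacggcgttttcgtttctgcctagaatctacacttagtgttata
AT5G28470, chr5:10428483-10428732, plus strand: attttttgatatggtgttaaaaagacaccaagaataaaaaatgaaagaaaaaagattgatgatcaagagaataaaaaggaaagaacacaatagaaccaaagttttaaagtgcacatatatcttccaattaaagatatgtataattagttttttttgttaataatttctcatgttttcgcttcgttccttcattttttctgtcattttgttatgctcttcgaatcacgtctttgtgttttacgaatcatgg
AT5G14940, chr5:4834533-4834782, minus strand: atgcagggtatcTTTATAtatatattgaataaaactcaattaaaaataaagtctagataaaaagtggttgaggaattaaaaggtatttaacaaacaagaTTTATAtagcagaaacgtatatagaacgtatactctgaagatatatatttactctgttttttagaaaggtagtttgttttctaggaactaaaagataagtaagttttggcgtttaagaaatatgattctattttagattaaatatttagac
AT5G62730, chr5:25197211-25197460, plus strand: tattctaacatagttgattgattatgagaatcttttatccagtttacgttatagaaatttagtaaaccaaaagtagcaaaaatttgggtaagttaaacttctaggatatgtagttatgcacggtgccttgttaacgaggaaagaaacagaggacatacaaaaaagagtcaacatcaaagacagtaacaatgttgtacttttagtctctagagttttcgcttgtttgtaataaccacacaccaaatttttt

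TATAAA was searched for after sequences next to these genes were seen. On the gene's own strand it occurred in 31.8% of the windows of the 22 members called higher in atcep1, in 25.9% of those of the 54 protein-coding members and in 32.1% of those of all 25742 nuclear loci matched to RefSeq; on either strand the shares were 63.6%, 46.3% and 46.4%. The E-box CANNTG, which reads the same on both strands and is bound by basic helix-loop-helix factors, was in 40.9% of the called members' windows, 48.1% of all protein-coding members' and 55.4% of all windows, and in none of the 4 printed. Its form CACGTG, counted among these too, was in 9.09%, 7.41% and 6.6%. These are counts of letters, with no test.

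Depth was even, at totals of 4135822, 4162141 and 4411953 counted reads for the atcep1 series in stage order and of 4037584, 4100078 and 4247731 for the WT series. Where a model had 1 read, the median covered length was 49 bases, and none of the 49-base windows in the exons of 47 members matched elsewhere in the genome exactly; the highest share was 3.14%, for NAXT1. CEP1 itself had 4, 5 and 6 reads in atcep1 and 0, 1 and 6 in WT, too few to test or to check the genotype labels. The flower bud markers AP1, AP3, PI and AG were read in every library.

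Peptide transport genes took a larger share of the transcripts in atcep1 at each stage. Their summed level was 684, 874 and 1315 RPKM (reads scaled to model length and library total) in atcep1 stages A, B and C, against 379, 516 and 750 RPKM in WT. In reads, they held 0.144%, 0.185% and 0.286% of the atcep1 libraries and 0.0806%, 0.112% and 0.166% of the WT libraries. Within each stage the atcep1 sum was the higher, and in both genotypes the sum grew with stage. In whole buds, fewer cells of a type and less RNA per cell cannot be told apart. The 3 genes with the most RPKM held 35.3%, 33.1% and 37.3% of the atcep1 sums and 31.0%, 28.4% and 35.0% of the WT sums.

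**Figure D1:**
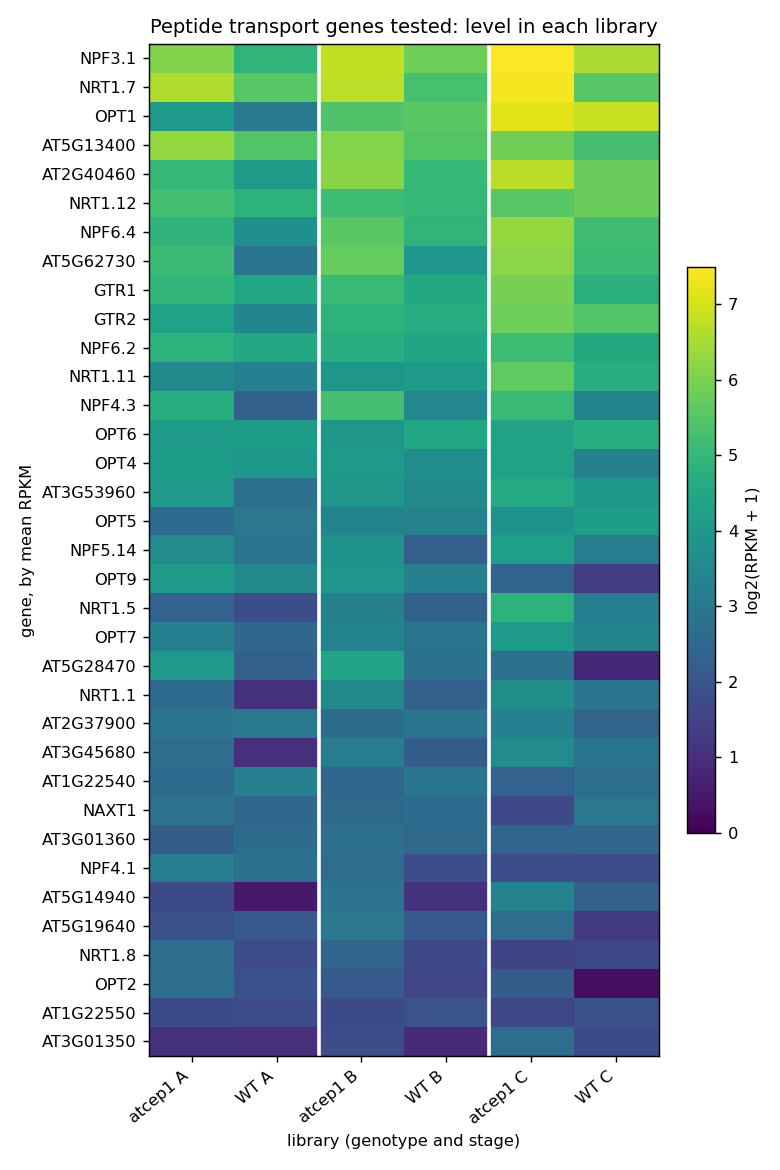
Level of the 35 tested peptide transport genes in the 6 libraries, as log2(RPKM + 1), genes ordered by mean RPKM and each atcep1 library left of the WT library of its stage. NPF3.1 and NRT1.7 lead, and most rows are brighter in atcep1 than in WT at the same stage.

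The genotype comparison asked which members differ between atcep1 and WT buds when each atcep1 library is set against the WT library of its stage. Of the 57 members, 35 passed the filter on low counts and were tested; 22 were higher in atcep1, 0 were lower and 13 were not called (edgeR quasi-likelihood test, Benjamini-Hochberg adjusted p below 0.05, 3 libraries per genotype). Over all 16114 genes tested, 16.0% were called higher and 11.5% lower. At an unadjusted p below 0.05, 26 members were higher and 1 was lower, and DESeq2 called 17 higher and 0 lower. The members' log2 fold changes ran from -0.52 to 2.09 with a median of 0.82, where all genes tested had a median near 0, at -0.0028. The filter let in 5 members through more atcep1 than WT libraries (AT5G28470, AT5G14940, AT3G45680, OPT2 and AT3G01350), so the count is not one over all members; with no filter, 24 of the 57 were called higher and 0 lower. The test has 2 residual degrees of freedom per gene. Its error combines the unevenness of the gene's genotype difference from stage to stage with a trend taken from all genes tested.

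**Figure D2:**
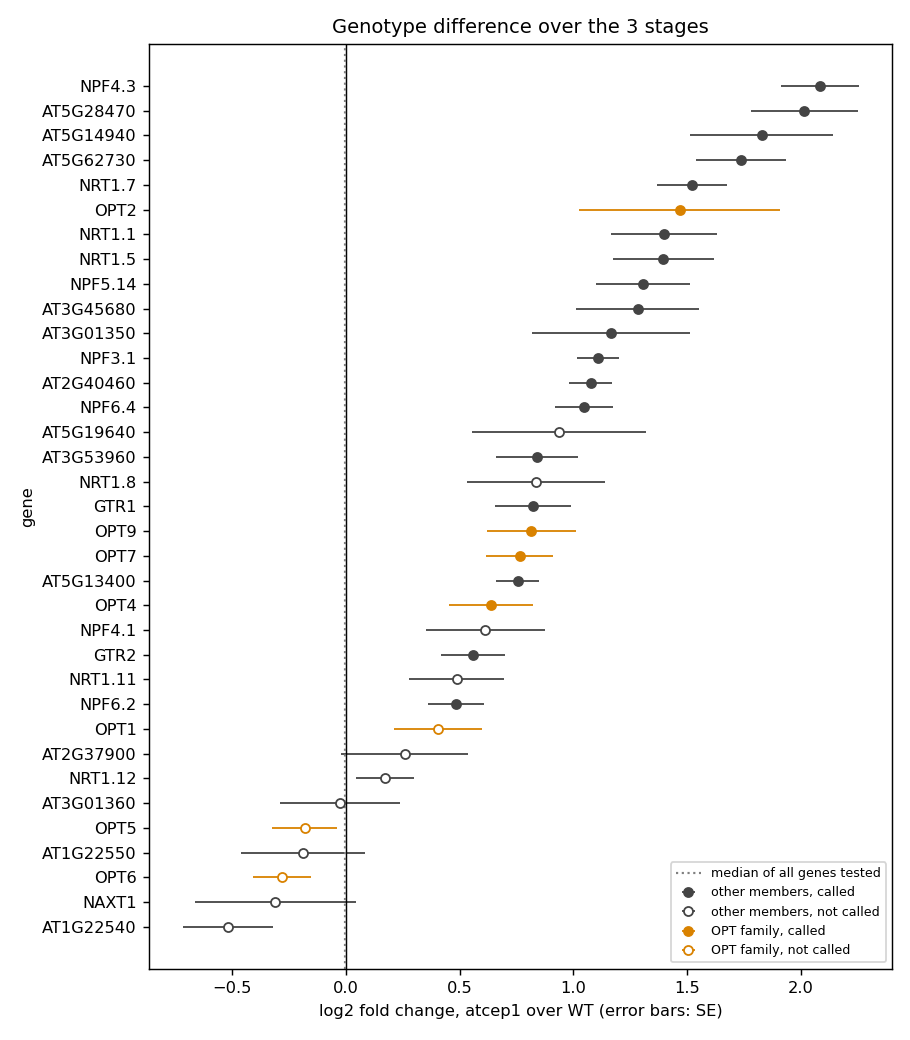
Log2 fold change, atcep1 over WT, of each of the 35 tested members over the 3 stages with its SE; filled points were called, open points were not, and the OPT family is in orange. The called members lie between 0.49 (NPF6.2) and 2.09 (NPF4.3), and the lowest point is AT1G22540 at -0.52.

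**Figure D3:**
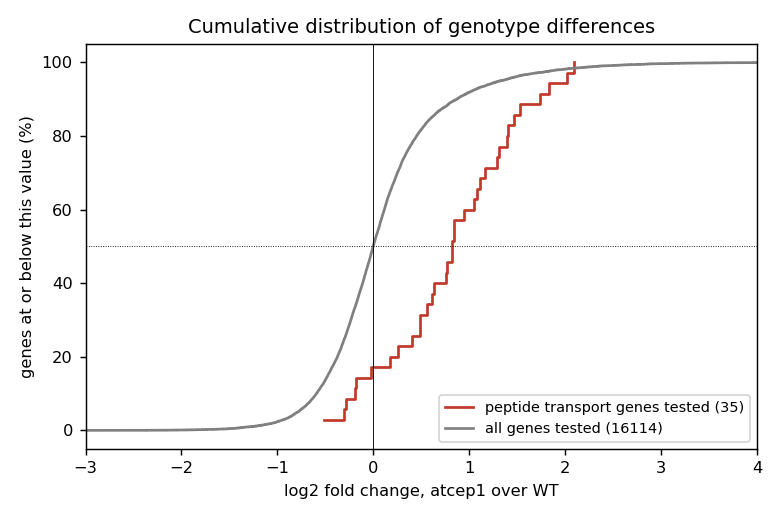
Cumulative share of genes, in percent, against the log2 fold change of atcep1 over WT, for the 35 peptide transport genes tested and for all 16114 genes tested. The members' curve lies to the right, crossing the middle at 0.82 where that of all genes crosses near 0.

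The nitrate transporters by name gave 3 of the higher members, among 7 tested, where 16.0% of all genes tested were called higher. NRT1.7 (AT1G69870), which loads nitrate from older leaves into the phloem, had 97.1, 107 and 166 RPKM in atcep1 stages A, B and C, against 46.3, 38.8 and 45.5 RPKM in WT. Every atcep1 library was above every WT library, and the highest was that of stage C. Its log2 fold change was 1.52 (SE 0.15, edgeR adjusted p = 3.42e-04). NRT1.1 (AT1G12110), the dual-affinity nitrate transporter and nitrate sensor, had 5.09, 11.1 and 12.0 RPKM in atcep1 and 1.16, 4.0 and 6.50 RPKM in WT. NRT1.5 (AT1G32450), which loads nitrate into the root xylem, had 4.08, 8.87 and 27.6 RPKM in atcep1 and 2.48, 4.0 and 8.37 RPKM in WT. Both were higher in atcep1 at each stage, although the ranges of the genotypes overlapped across stages because both genes also climbed with stage. Their log2 fold changes were 1.40 (SE 0.23, edgeR adjusted p = 0.00361) and 1.40 (SE 0.22, edgeR adjusted p = 0.00272).

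The other 4 tested members named for nitrate were not called. NRT1.8 (AT4G21680), which takes nitrate out of the xylem sap, had 5.41, 4.48 and 1.90 RPKM in atcep1 and 2.31, 2.16 and 2.08 RPKM in WT (log2 fold change 0.84, SE 0.30, edgeR adjusted p = 0.0710). NRT1.11 (AT1G52190) and NRT1.12 (AT3G16180), which pass nitrate from xylem to phloem in the leaf, had log2 fold changes of 0.49 and 0.17. NRT1.12 ranked sixth of the members by mean level, at 37.4, 35.0 and 45.8 RPKM in atcep1 and 27.5, 30.6 and 54.5 RPKM in WT. NAXT1 (AT3G45650), a nitrate efflux transporter, had 6.20, 5.01 and 2.16 RPKM in atcep1 and 4.73, 5.09 and 6.88 RPKM in WT, so its genotypes differed mainly at stage C. There it had 16 reads in atcep1 and 49 in WT, a ratio per library total of 0.314 (95% interval 0.167 to 0.562, counting error only). Its neighbour AT3G45680, a major facilitator superfamily gene in the same cluster, went the other way, with 5.46, 7.88 and 11.4 RPKM in atcep1 and 1.06, 3.67 and 6.45 RPKM in WT (log2 fold change 1.28, SE 0.27, edgeR adjusted p = 0.00989). The remaining members named for nitrate, NRT1.6 and NRT1.9, were too low to be tested.

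Both glucosinolate transporters were called higher in atcep1 by edgeR, against 16.0% of all genes tested. GTR1 was called under each tool and GTR2 by edgeR alone. GTR1 (AT3G47960), which imports glucosinolates, the sulfur-rich defence compounds, had 29.9, 32.2 and 61.8 RPKM in atcep1 and 21.5, 22.3 and 26.2 RPKM in WT. Its genotypes did not overlap, and the gap was widest at stage C (log2 fold change 0.82, SE 0.17, edgeR adjusted p = 0.00814). Without stage C the fold change was 0.52. GTR2 (AT5G62680), its close relative, had 19.5, 27.9 and 56.6 RPKM in atcep1 and 9.84, 23.8 and 42.9 RPKM in WT, with overlap across stages. GTR2 differed by 0.56 (SE 0.14, edgeR adjusted p = 0.0209), and without stage A the value was 0.39 with an adjusted p of 0.114. With all libraries, DESeq2 gave it 0.58 at an adjusted p of 0.0506, and limma gave 0.51 and 0.54 at 0.0554 and 0.0650 on log2(RPKM + 1) and log2(RPKM + 0.1).

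The NPF members without a substrate in their symbol held the largest differences. Of these, 13 of 18 tested were called higher, against 16.0% of all genes tested. AT5G28470, AT5G14940, AT3G45680 and AT3G01350 passed the filter through more atcep1 than WT libraries. NPF4.3 (AT1G59740) had 24.9, 37.7 and 32.8 RPKM in atcep1 and 3.90, 10.2 and 9.85 RPKM in WT. The lowest atcep1 library was thus above the highest WT library, and the log2 fold change was 2.09 (SE 0.17, edgeR adjusted p = 1.26e-04). AT5G62730, a gene with no symbol of its own in RefSeq, had 34.6, 51.6 and 71.6 RPKM in atcep1 and 6.58, 14.2 and 33.7 RPKM in WT. These genotypes also did not overlap (log2 fold change 1.74, SE 0.20, edgeR adjusted p = 5.84e-04). AT5G28470 had 15.4, 19.7 and 5.89 RPKM in atcep1, against 3.95, 6.05 and 0.835 RPKM in WT. It was higher in atcep1 at each stage and low at stage C in both genotypes (log2 fold change 2.02, SE 0.23, edgeR adjusted p = 6.52e-04). AT5G14940 was a low gene, at 2.22, 6.21 and 9.24 RPKM in atcep1 and 0.427, 1.12 and 3.92 RPKM in WT, with a log2 fold change of 1.83 (SE 0.32, edgeR adjusted p = 0.00417). It passed the filter through 3 atcep1 libraries and 1 WT library.

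The member with the highest mean over the 6 libraries, 89.2 RPKM against 83.4 RPKM of NRT1.7, was NPF3.1 (AT1G68570, chr1:25746736-25750275), known as a gibberellin transporter. It had 66.7, 112 and 180 RPKM in atcep1 and 28.7, 56.0 and 92.2 RPKM in WT. At stages A and B the atcep1 library was above the WT library of the following stage, and the log2 fold change was 1.11 (SE 0.094, edgeR adjusted p = 1.52e-04). AT2G40460 also climbed, with 30.7, 70.1 and 105 RPKM in atcep1 and 15.9, 31.5 and 54.4 RPKM in WT (1.08, SE 0.095, edgeR adjusted p = 1.82e-04). NPF6.4 (AT3G21670) had 28.3, 46.6 and 78.7 RPKM in atcep1 and 12.6, 29.0 and 35.5 RPKM in WT (1.05, SE 0.13, edgeR adjusted p = 7.84e-04). In all of these, level and genotype difference went with a climb across stages in both genotypes.

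AT5G13400 was high without such a climb, at 78.1, 67.4 and 57.6 RPKM in atcep1 and 42.8, 43.5 and 37.8 RPKM in WT. Its genotypes did not overlap (log2 fold change 0.76, SE 0.095, edgeR adjusted p = 9.06e-04). NPF5.14 (AT1G72120) had 11.4, 13.4 and 17.9 RPKM in atcep1 and 6.34, 3.83 and 7.94 RPKM in WT, again without overlap (1.31, SE 0.21, edgeR adjusted p = 0.00275). It lies in a cluster of 5 members at chr1:27132097-27144490 of which it alone had enough reads to be tested. NPF6.2 (AT2G26690), a nitrate transporter of the petiole, had 27.5, 25.4 and 34.9 RPKM in atcep1 and 22.2, 20.3 and 22.5 RPKM in WT. Its genotypes were close but separate (0.49, SE 0.12, edgeR adjusted p = 0.0206); without stage A the adjusted p was 0.0652, and DESeq2 gave 0.122. A non-coding member, AT2G26692, overlaps NPF6.2 on the opposite strand over 275 bases, and no strand is stated for the counts.

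The last called members of this group were AT3G53960 and AT3G01350. AT3G53960 had 15.2, 14.8 and 23.0 RPKM in atcep1 and 5.75, 10.7 and 15.04 RPKM in WT (log2 fold change 0.84, SE 0.18, edgeR adjusted p = 0.0108, and 0.0561 without stage A). AT3G01350 had 1.14, 2.41 and 5.49 RPKM in atcep1 and 1.02, 0.865 and 2.23 RPKM in WT (1.17, SE 0.35, edgeR adjusted p = 0.0379, and 0.118 without stage B). Neither DESeq2 nor limma on log2(RPKM + 1) or log2(RPKM + 0.1) called AT3G01350, and both tools called AT3G53960. AT3G01350 also shares 1062 bases with AT3G01360 on the opposite strand, so its reads are uncertain; AT3G01360 itself was not called, at -0.03.

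The 5 tested members of the group that were not called were NPF4.1, AT5G19640, AT2G37900, AT1G22540 and AT1G22550. NPF4.1 (AT3G25260), an importer of gibberellin and abscisic acid, had 8.10, 5.45 and 2.45 RPKM in atcep1 and 6.13, 2.39 and 2.31 RPKM in WT (log2 fold change 0.61, edgeR adjusted p = 0.114). AT1G22540 had the lowest fold change of all members, with 5.19, 4.58 and 4.09 RPKM in atcep1 and 8.59, 6.67 and 5.52 RPKM in WT. Every atcep1 library was below every WT library, yet the difference did not pass the test (-0.52, SE 0.20, edgeR adjusted p = 0.0826). Its neighbour AT1G22550 had 17, 17 and 17 reads in atcep1 and 17, 21 and 21 in WT. In RPKM it too was below WT in every atcep1 library (-0.19), at stage A only through the library totals. AT1G22540 and AT1G22550 were the only 2 of the 35 with atcep1 wholly below WT in RPKM, against 18.7% of all genes tested. Wholly above were 9, against 13.6%. Higher in atcep1 at each of the 3 stages were 23 members, against 26.1% of all genes tested, and lower at each were 3 (OPT6, AT1G22540 and AT1G22550), against 33.9%.

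The OPT family was mixed, with 4 of 7 tested members called higher, against 16.0% of all genes tested. DESeq2 called OPT7 and OPT9 but neither OPT2 nor OPT4. OPT4 (AT5G64410), which carries oligopeptides when made in yeast, had 17.3, 16.1 and 18.9 RPKM in atcep1 and 15.1, 11.5 and 8.74 RPKM in WT. The genotypes did not overlap and lay furthest apart at stage C (log2 fold change 0.64, SE 0.19, edgeR adjusted p = 0.0343). Without stage C its value was 0.35 with an adjusted p of 0.0861, and with all libraries the adjusted p was 0.110 by DESeq2 and 0.0760 and 0.0830 by limma. OPT7 (AT4G10770) had 8.75, 9.52 and 15.5 RPKM in atcep1 and 4.62, 6.50 and 9.69 RPKM in WT (0.77, SE 0.15, edgeR adjusted p = 0.00669). OPT9 (AT5G53510) had 16.2, 14.1 and 4.38 RPKM in atcep1 and 11.0, 8.66 and 1.59 RPKM in WT (0.82, SE 0.19, edgeR adjusted p = 0.0162). Both were higher in atcep1 at each stage, with overlap across stages, and they ran in opposite directions with stage. OPT2 (AT1G09930) was low, at 5.48, 3.38 and 3.60 RPKM in atcep1 and 2.70, 1.99 and 0.214 RPKM in WT. Its WT stage C library held 2 reads, under the floor of 3 reads taken as detection, and the atcep1 stage C library 35. OPT2 was called at 1.47 (SE 0.44, edgeR adjusted p = 0.0391), with 0.92 without stage C and, without stage A, 1.80 at an adjusted p of 0.0853; by DESeq2 the adjusted p was 0.0561.

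The 3 OPT genes that were tested and not called were OPT1, OPT5 and OPT6. OPT1 (AT5G55930), an oligopeptide transporter, had 16.1, 42.1 and 145 RPKM in atcep1 and 7.29, 47.2 and 115 RPKM in WT. Genotypes thus crossed at stage B (log2 fold change 0.41, SE 0.19, edgeR adjusted p = 0.151). OPT6 (AT4G27730), linked to glutathione transport, had 16.8, 14.8 and 18.9 RPKM in atcep1 and 17.3, 21.2 and 25.6 RPKM in WT (-0.28, SE 0.13, edgeR adjusted p = 0.128). OPT5 (AT4G26590) had 5.15, 9.33 and 13.5 RPKM in atcep1 and 6.88, 9.28 and 17.0 RPKM in WT (-0.18). It shares 971 bases with the antisense RNA AT4G26582, another member, which had at most 8 reads in a library.

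The 22 members that were not tested had 1 to 63 reads over all 6 libraries and at most 2.54 RPKM in any. Of these, 16 had more reads in the atcep1 libraries, 3 had fewer and 3 had as many. PTR4 (AT2G02020), a vacuolar peptide transporter and the only NPF member named for peptides, had 2, 3 and 2 reads in atcep1 and 1, 2 and 3 in WT, near or below the floor in each. NRT1.9 (AT1G18880), which loads nitrate into the root phloem, had 9, 16 and 21 reads in atcep1 and 3, 6 and 8 in WT. AT3G45710 had 7, 13 and 21 reads in atcep1 and 1, 6 and 6 in WT. With no filter on low counts, NRT1.9 (log2 fold change 1.42) and AT3G45710 (1.64) were the 2 added calls. NRT1.9 shares 605 bases with AT1G18890 on the opposite strand, so its reads are uncertain.

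Most members that differed between stages were higher later. In the fit used for genotype, stage C against stage A gave 18 members higher and 3 lower, where 12.1% of all genes tested were called higher and 7.27% lower. The median log2 fold change of the members was 0.74, against -0.02 for all genes tested. Stage B against stage A gave 7 members higher and 0 lower, with 4.36% and 0.484% of all genes called; 1 member was lower at an unadjusted p below 0.05, and DESeq2 called 5 higher and 0 lower. Stage C against stage B gave 8 higher and 2 lower, with 4.28% and 2.36% of all genes called. These steps share libraries with one another, and each stage has 1 library per genotype.

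**Figure D4:**
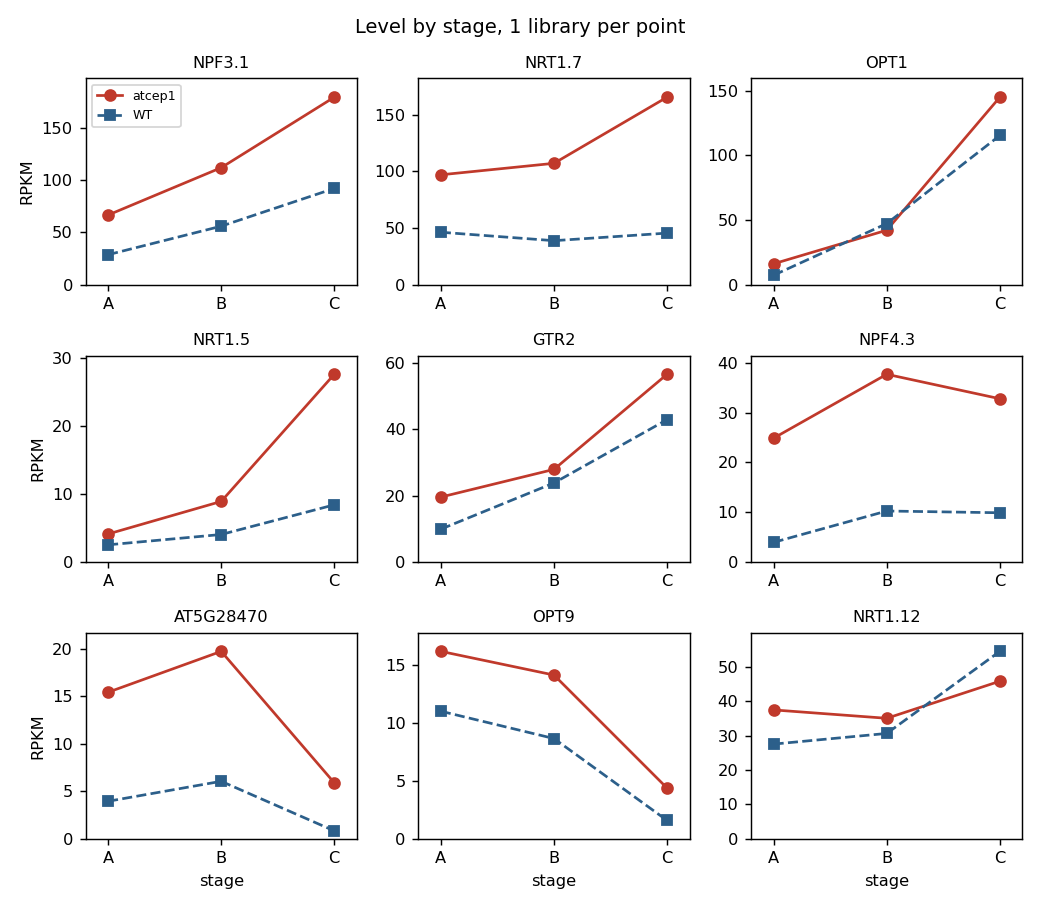
RPKM of 9 members at stages A, B and C, atcep1 as red circles and WT as blue squares, 1 library per point. NPF3.1, OPT1, NRT1.5 and GTR2 climb in both genotypes, AT5G28470 and OPT9 are lowest at stage C in both, and for NRT1.12 WT is the higher genotype at stage C only.

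OPT1 had the steepest climb, with the values given above: log2 fold changes of 3.61 at stage C against stage A (SE 0.26, edgeR adjusted p = 3.1e-05), 2.04 at stage B against stage A (SE 0.25, edgeR adjusted p = 0.00265) and 1.57 at stage C against stage B (SE 0.23, edgeR adjusted p = 0.00519). It rose in both genotypes, and was the third member by mean level at 62.2 RPKM. At stage C against stage A the next were AT5G14940 (2.50), NRT1.5 (2.48), NRT1.11 (2.01), AT3G01350 (1.90) and GTR2 (1.90). NRT1.11 had 10.8, 14.5 and 49.8 RPKM in atcep1 and 8.89, 15.9 and 25.6 RPKM in WT, so that its climb was in both genotypes and the atcep1 stage C library stood highest. The rise of AT3G01350 lost its call without atcep1 stage A (1.14, edgeR adjusted p = 0.335) or without atcep1 stage C (1.58, edgeR adjusted p = 0.105).

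Between stage A and stage B the other called rises were of AT2G40460 (1.15), NRT1.1 (1.35), NPF6.4 (1.00), GTR2 (0.91), NPF3.1 (0.90) and NPF4.3 (0.90). Those of NRT1.1, NPF6.4 and GTR2 were not called when 1 library of stage A was left out: the adjusted p by edgeR was 0.0710 for NRT1.1 and 0.0611 for NPF6.4 without atcep1 stage A, and 0.162 for GTR2 without WT stage A. NRT1.1 was not called without WT stage A (0.120) or atcep1 stage B (0.164) either, nor GTR2 without WT stage B (0.0788). Between stage B and stage C, besides OPT1, the 5 largest rises among called members were of NRT1.5 (1.47), NRT1.11 (1.31), GTR2 (0.98), OPT5 (0.75) and NPF3.1 (0.75). Without atcep1 stage B the count of members higher at this step was 4, and NRT1.5, NRT1.11, GTR2 and OPT5 were among those not called, at edgeR adjusted p-values of 0.0506, 0.0541, 0.0541 and 0.05005. NRT1.5 had 0.95 and an adjusted p of 0.0791 without atcep1 stage C, where NRT1.11 had 0.77. OPT5 had an adjusted p of 0.265 without WT stage B and 0.0632 without WT stage C.

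The 3 members that fell were OPT9, AT5G28470 and NPF4.1. OPT9 had a log2 fold change of -1.90 at stage C against stage B (SE 0.26, edgeR adjusted p = 0.00442) and of -2.11 against stage A. AT5G28470 changed by -1.95 at stage C against stage B (SE 0.29, edgeR adjusted p = 0.00627) and by -1.44 against stage A. The change against stage A was not called without atcep1 stage A (edgeR adjusted p = 0.108) and was -2.28 without atcep1 stage C. NPF4.1 changed by -1.46 at stage C against stage A (edgeR adjusted p = 0.0127), and was not called without atcep1 stage A, WT stage A or atcep1 stage C (adjusted p = 0.0512, 0.0540 and 0.0621). All 3 were low at stage C in both genotypes. OPT9 lies beside OPT8 at chr5:21738849-21745981; OPT8 had 3, 5 and 13 reads in atcep1 and 0, 1 and 5 in WT.

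Within a stage 1 library was set against 1, with no test, as log2((atcep1 RPKM + 1)/(WT RPKM + 1)), on which low genes appear to change less than they do. At stage A 10 of 30 members with at least 5 RPKM in the higher library were at least 2-fold higher in atcep1 and 0 lower, against 6.23% and 3.25% of all such genes. At stage B these were 8 and 0 of 31 (13 and 0 with a pseudocount of 0.1), against 6.64% and 4.0%, and at stage C 12 and 1 of 29, against 8.15% and 3.89%. The highest ratio was of NPF4.3 at stage A (2.40), AT5G62730 at stage B (1.79) and AT5G28470 at stage C (1.91). The lowest was of AT1G22540 at stage A (-0.63), OPT6 at stage B (-0.50) and NAXT1 at stage C (-1.32), the last being the 1 member at least 2-fold lower. The gap of AT5G62730 was 2.23 at stage A, 1.79 at stage B and 1.07 at stage C, and that of NRT1.7 was 1.05, 1.44 and 1.84, so these leading genes had their widest gap at opposite ends of the series.

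Other transporters of peptides, which lack the term, were looked at from lists by name. Of the PTR genes that are no members, 5 of 5 tested were higher in atcep1, against 16.0% of all genes. DESeq2 and both limma fits called 4 of the 5. PTR3 passed the filter on low counts through its atcep1 libraries only, with 35, 23 and 40 reads there and 7, 9 and 8 in WT. PTR5 passed it through more atcep1 than WT libraries, with 6, 8 and 56 reads in WT. The share called among tested PTR genes therefore depends in part on the genotype difference itself. PTR3, a wound-induced peptide transporter, had 4.57, 2.99 and 4.90 RPKM in atcep1 and 0.937, 1.19 and 1.02 RPKM in WT (log2 fold change 2.02, SE 0.32, edgeR adjusted p = 0.00294). PTR5, a plasma membrane transporter of dipeptides, had 3.29, 4.79 and 12.6 RPKM in atcep1 and 0.723, 0.949 and 6.42 RPKM in WT (1.58, SE 0.30, edgeR adjusted p = 0.00613). PTR1, PTR6 and PTR2 differed by 0.91, 0.64 and 0.54. The genotypes of PTR3 did not overlap.

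Of the YSL genes, OPT-related carriers of metals bound to nicotianamine, 4 of 7 tested were higher, against 16.0% of all genes, and the median was 0.38; DESeq2 called 2 of 8, and limma 2 and 1 of 7. These were YSL7 (1.38), YSL2 (1.04), YSL1 (0.67) and YSL6 (0.38). OPT3, which acts in iron loading of the phloem, was higher by 0.41 and was not called by DESeq2. NRT1:2, a nitrate transporter, was higher by 0.38 by edgeR and not called by DESeq2 or limma. Of the peptide-cleaving enzymes 2 of 8 tested were higher by edgeR, against 16.0% of all genes: PREP1 (1.41), a mitochondrial and plastid peptidase, and LAP2 (0.40), a leucine aminopeptidase. PREP1 had 7 reads at WT stage B and passed the filter through more atcep1 than WT libraries. DESeq2 called 0 of 12, with 3 higher at an unadjusted p below 0.05, and each limma fit called 1 of 8; the edgeR median of the 8 was 0.10. Of the TAP-like and mitochondrial ABC transporters 0 of 3 were called by edgeR, DESeq2 or limma, and 1 was higher at an unadjusted edgeR p below 0.05.

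Markers of the anther's cell types moved with genotype and stage as well. The calls below are by edgeR unless named, which called 16.0% of all genes tested higher in atcep1 and 11.5% lower. Tapetum markers were called higher in atcep1 for 6 of 6 tested of 8 listed, with summed levels of 1344, 771 and 181 RPKM in atcep1 stages A, B and C and 386, 154 and 11.5 RPKM in WT. Among them, A9 and A6 had 7 and 5 reads at WT stage C and passed the filter through more atcep1 than WT libraries. Pollen markers were higher for 6 of 6, with 108, 669 and 1622 RPKM in atcep1 and 13.9, 315 and 773 RPKM in WT. DESeq2 called 4 of these 6 higher, and each limma fit called 6. DYT1, an early tapetal regulator, had 0 reads at stage C in atcep1, MYB80 had 0 at stage C in WT, and the pollen factor AGL66 had 0 at stage A in WT. Of the green tissue markers, 1 of 4 was lower (LHCB1.2, at -0.61). DESeq2 also called 1 of 4 lower, and each limma fit called 0, with 1 lower at an unadjusted p below 0.05. The green tissue sums were 6873, 6400 and 5760 RPKM in atcep1 and 8449, 9291 and 5378 RPKM in WT. Of the carpel markers 1 of 3 tested was lower (INO, at -1.43), with sums of 133, 124 and 117 RPKM in atcep1 and 199, 109 and 95.4 RPKM in WT. Of the flower bud markers 2 of 4 were higher, AG (1.296) and AP1 (0.66), with sums of 741, 860 and 766 RPKM in atcep1 and 691, 670 and 545 RPKM in WT. The part of these shifts in the members' differences was not tested.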

How the data were processed

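Buds were harvested by anther stage, and poly(A) RNA was fragmented, copied from random hexamers and sequenced on an Illumina HiSeq, per the labels' protocols. The authors deposited 1 table per library with, per the file headers, the count of uniquely mapped reads, the RPKM and the percent of each transcript model covered. The genome build was TAIR10, per the submitters' processing notes. Which aligner and counter were used is not given in the sources used here. Percent covered served only to find the length a read covers. Unlisted models were set to 0, and the counts and RPKM of 30088 models were summed to 25964 loci. Symbols came from the files and RefSeq (TAIR10.1), which matched 57 of 57 members; 25742 of 25743 nuclear loci overlapped their RefSeq interval.

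Counts were tested with edgeR 4.0.16, run in R 4.3.3 (quasi-likelihood F test, TMM factors, filterByExpr with a minimum count of 10). Genotype and stage were additive terms, with Benjamini-Hochberg adjustment over 16114 genes and calls below 0.05. The script was also run on simulated counts with no stage differences and the same dispersion for every gene. Because these data differ from that setting, the run cannot show how well the fit does on them. Each SE is the log2 fold change over the square root of F. Nothing says that libraries came from separate plants, so p-values measure the spread between these libraries, which may be technical. Intervals are exact binomial at 95%, and the floor is 3 reads; both cover counting error only. Values are given for each called member, the 3 highest, the 6 largest rises and falls of each step, the extreme ratio at each stage and up to 4 called genes of a list; a few others were named after their values were seen. Alternatives were DESeq2 1.42.0, library totals, no filter, the most-read model, limma 3.58.1 on log2(RPKM + 1) and log2(RPKM + 0.1), no block, and leaving out stages or libraries. The members and lists were chosen with earlier results of these data known.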

Additional observations from a re-analysis of the deposited data

Results flagged for a closer look

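NRT1.12 (AT3G16180), which passes nitrate from xylem to phloem in the leaf, drew attention because its genotype difference had opposite directions at 2 stages. The log2 ratio of atcep1 over WT was 0.43 at stage A, where the ratio of reads per library total was 1.36 (95% interval 1.15 to 1.62), and -0.25 at stage C, where it was 0.841 (0.736 to 0.960). At stage B the ratio was 1.14 (0.966 to 1.35). The intervals cover counting error only, and the difference between stages was not tested, since each genotype has 1 library per stage.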

How the results depend on the processing

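No paired analysis was possible by replicate number, because the labels carry none; the genotype fit already pairs the libraries of a stage through its stage block. Without the stage block 2 members were called higher in atcep1 in place of 22. DESeq2 gave 17, library totals 22, no filter 24, limma 19 and 17, and leaving out a stage 19 to 23; 0 were called lower in each. With stage as the only term (no genotype block), stage B against A gave 0 members higher (7 before), stage C against B 0 higher and 0 lower (8 and 2), and stage C against A 3 higher and 0 lower (18 and 3). By limma on log2(RPKM + 1) and log2(RPKM + 0.1), stage B against A gave 4 and 4 higher, and stage C against B gave 3 and 1. Leaving out 1 library, stage B against A gave 5 to 12 higher (12 without atcep1 stage C or WT stage C), stage C against B 4 to 12 (4 without atcep1 stage B, 12 without WT stage A), and stage C against A 16 to 21 higher and 1 to 4 lower (1 without atcep1 stage A). At stage B, 13 members were at least 2-fold higher with a pseudocount of 0.1, in place of 8. The causes were not tested. AT5G13400 and NRT1.7 were called for genotype under all 10 alternatives run on them. No called value changed sign among the members and steps for which alternatives were run. At this depth 22 members had too few reads to be tested.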
